A study of Danio rerio with 16 samples.

Results

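A set of 6 genes that mark macrophages, neutrophils or all leukocytes were followed in the zebrafish heart ventricle after cryoinjury. They are 6 of the 32520 gene IDs in the deposited table, chosen by ID. The macrophage genes are mpeg1.1 (ENSDARG00000055290) and marco (ENSDARG00000059294). The genes shared by most leukocytes are lcp1 (ENSDARG00000023188) and coro1a (ENSDARG00000054610), and the neutrophil genes are mpx (ENSDARG00000019521) and lyz (ENSDARG00000057789). All 6 were counted and all 6 passed the filter on low counts.

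Adult zebrafish were cryoinjured by touching the ventricle with a probe cooled in liquid nitrogen for 25 seconds, or sham operated with the probe at room temperature, and ventricles were taken after 7 days. The 4 groups were injured ankrd1a mutants, injured wild-type fish, sham-operated ankrd1a mutants and sham-operated wild-type fish. Each group had 4 libraries, and each library was a pool of 3 ventricles. The mutants were of the ankrd1abns502 line, made with CRISPR/Cas9; Ankrd1 is a muscle protein with ankyrin repeats that is induced by stress on the heart. The wild-type fish were of the AB (Oregon) strain, and the labels do not state the background of the mutant line, the age or the sex of the fish. The heart was exposed and touched in all groups, so the sham fish are operated and not untouched.

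Zebrafish regrow the ventricle after cryoinjury, and leukocytes enter the wound early. Neutrophils arrive first and then leave or die, while macrophages follow, clear dead muscle and persist for longer. The product of mpeg1.1 is a pore-forming protein of the perforin family that macrophages use against engulfed bacteria. Marco is a scavenger receptor with a collagen-like stalk that binds bacteria and debris. The proteins of lcp1 (L-plastin) and coro1a (coronin 1A) bundle or bind actin filaments in moving and engulfing leukocytes of both kinds. Myeloperoxidase, the product of mpx, makes hypochlorous acid in neutrophil granules, and lysozyme, the product of lyz, cuts bacterial cell walls.

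Total counts were 5623721 to 12254719 per library. No library was a near copy of another: chi-square divided by its degrees of freedom was 7.68 to 39.5 over the 24 pairs within groups. Cardiac muscle markers were abundant in every library, with 18 of 19 gene IDs of that list tested and a summed level of 66790 to 125800 CPM, which fits the tissue label. The symbol ANKRD1 stands on more than 1 gene ID, and which of them is ankrd1a is not given. The expressed one, ENSDARG00000075263, had 145 to 249 counts per library in injured mutants and 66 to 340 in injured wild type, so RNA level does not check the genotype labels. In the RefSeq gene list, matched by symbol, all 6 markers lay on chromosomes other than that of ankrd1a. Levels below are counts per 1000000 (CPM) after TMM scaling, and they compare libraries for 1 gene, not genes with each other. Because these are bulk samples, more cells of a type and more RNA per cell cannot be told apart.

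The markers mpeg1.1, lcp1 and coro1a were several times higher in injured ventricles of both genotypes. The macrophage marker marco rose 4.44-fold in wild type and 2.39-fold in mutants. Of the neutrophil markers, which had far fewer counts, mpx rose in wild type and lyz was called in neither genotype. In mutants 4 of the 6 genes rose after injury by edgeR's quasi-likelihood test (adjusted p below 0.05), where 16.5% of the 14986 genes tested rose. In wild type 5 of the 6 rose, where 13.9% of all tested genes did. No member fell in either genotype, where 12.4% of all tested genes fell in mutants and 11.5% in wild type. The same 4 genes in mutants had every injured library above every sham library, which held for 15.8% of all tested genes in that direction. In wild type 5 members did so, against 14.0% of all tested genes.

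**Figure D1:**
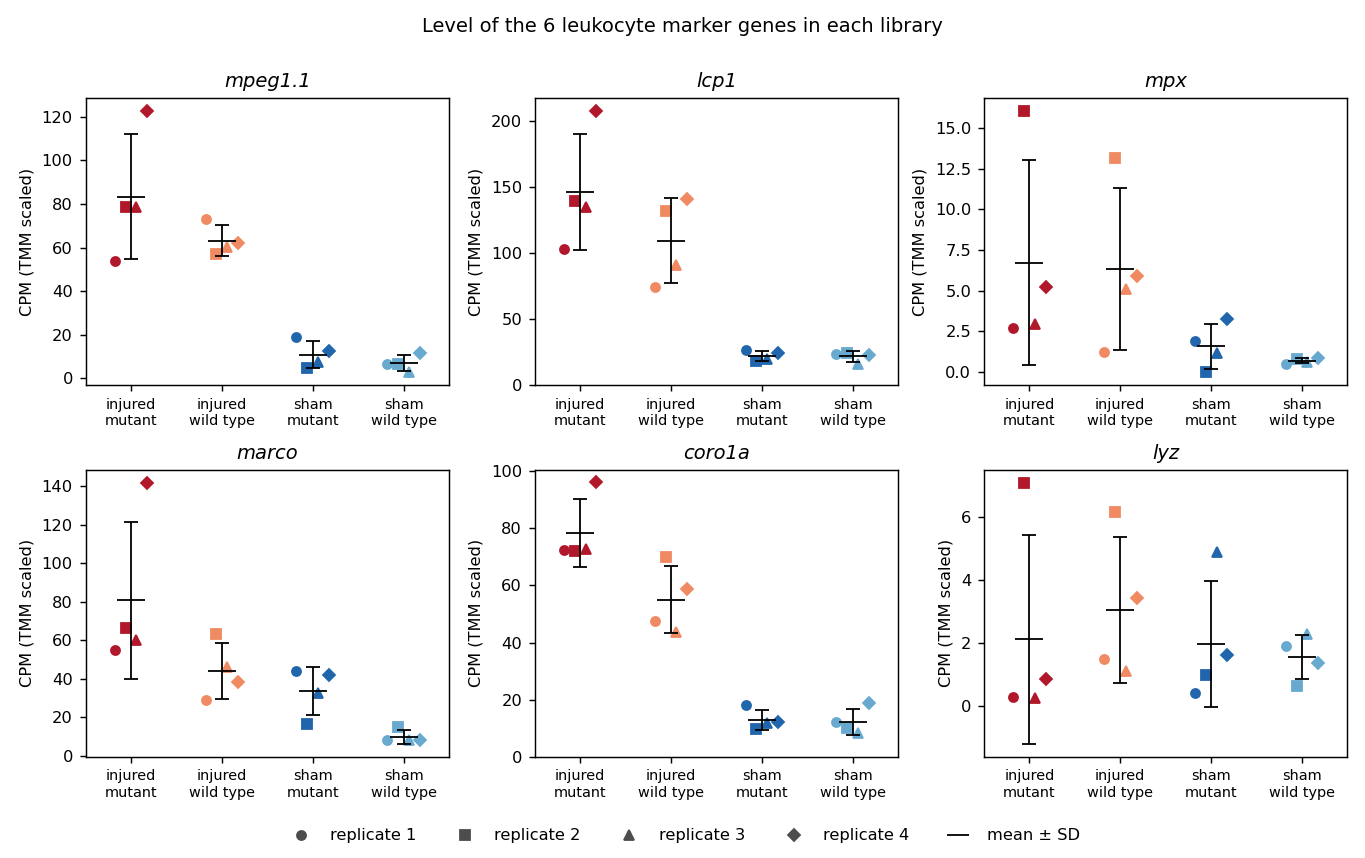
Level of each marker gene in every library, in CPM after TMM scaling, by group; symbols are the 4 libraries of a group and the bar is the mean ± SD. In mpeg1.1, lcp1 and coro1a the injured groups lie above the sham groups without overlap, and in mpx and lyz 1 injured library of each genotype, numbered 2, stands highest.

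For mpeg1.1 the 4 libraries had 53.9, 78.4, 78.5 and 122 CPM in the injured mutants, against 19.0, 4.71, 7.61 and 12.4 CPM in sham mutants. In wild type it had 73.3, 57.2, 60.0 and 62.3 CPM in injured fish, against 6.67, 6.67, 2.88 and 11.8 CPM in sham fish. The lowest injured library was well above the highest sham library in both genotypes, and the sham libraries varied more in proportion, by 4.03-fold within sham mutants and 4.09-fold within sham wild type. The gene rose by 2.91 on the log2 scale in mutants (SE 0.37, edgeR adjusted p = 2.62e-05) and by 3.16 in wild type (SE 0.38, edgeR adjusted p = 1.92e-05). These are 7.53-fold and 8.92-fold increases.

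Another ID with the symbol MPEG1, ENSDARG00000043093, responded less. Its mean was 18.8 ± 4.92 CPM in injured mutants and 7.37 ± 2.66 CPM in sham mutants (n = 4, SD), a rise of 1.35 on the log2 scale (edgeR adjusted p = 0.0155, SE 0.39). In wild type its mean was 21.9 ± 14.6 CPM in injured fish and 11.4 ± 1.78 CPM in sham fish, a log2 fold change of 0.93 that was not called (edgeR adjusted p = 0.0844). Estimated counts can split reads among paralogs, so the value of this ID carries that uncertainty. The deposited mpeg1.1 counts were whole numbers in every library, so no such split was visible in them. One more ID with this symbol, ENSDARG00000078569, had no count in any library.

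For marco the libraries had 54.8, 66.1, 60.0 and 142 CPM in the injured mutants, against 43.8, 16.7, 32.8 and 41.8 CPM in sham mutants. In wild type they had 29.0, 63.1, 46.1 and 38.4 CPM in injured fish, against 8.21, 15.2, 8.02 and 8.02 CPM in sham fish. The injured libraries were above the sham libraries in both genotypes, narrowly in mutants, whose sham libraries were already high. The gene rose by 1.25 on the log2 scale in mutants (SE 0.33, edgeR adjusted p = 0.00924) and by 2.15 in wild type (SE 0.36, edgeR adjusted p = 0.000333). Injured mutant replicate 4 carried much of the mutant value: without it the log2 fold change was 0.83 (edgeR adjusted p = 0.0481).

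For lcp1 the libraries had 103, 139, 135 and 208 CPM in the injured mutants, against 26.8, 18.2, 19.5 and 24.3 CPM in sham mutants. In wild type they had 74.4, 132, 91.0 and 141 CPM in injured fish, against 23.4, 24.8, 16.0 and 22.9 CPM in sham fish. The sham libraries of both genotypes lay in 1 narrow band far below any injured library. The log2 fold change was 2.72 in mutants (SE 0.24, edgeR adjusted p = 1.34e-06) and 2.33 in wild type (SE 0.24, edgeR adjusted p = 4.92e-06).

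For coro1a the libraries had 72.5, 72.0, 72.6 and 96.0 CPM in the injured mutants, against 18.02, 9.74, 11.7 and 12.1 CPM in sham mutants. In wild type they had 47.6, 70.1, 43.8 and 58.8 CPM in injured fish, against 12.1, 10.2, 8.23 and 18.8 CPM in sham fish. Here too no injured library overlapped a sham library. The log2 fold change was 2.60 in mutants (SE 0.24, edgeR adjusted p = 1.51e-06) and 2.15 in wild type (SE 0.24, edgeR adjusted p = 9.28e-06). Among the relatives of these actin regulators that are not specific to leukocytes, coro1b (ENSDARG00000008660) had log2 fold changes of 0.10 in mutants and -0.07 in wild type and was not called in either (edgeR adjusted p = 0.815 and 0.896). Of the gene IDs named CORO1C, ENSDARG00000035598 rose by 1.63 in mutants and 1.11 in wild type (edgeR adjusted p = 0.000164 and 0.00347), and ENSDARG00000021193 was not called, at 0.19 and -0.40. PLS3 (ENSDARG00000037655), a plastin related to lcp1, rose by 1.26 in mutants and 0.97 in wild type (edgeR adjusted p = 7.16e-05 and 0.000635). The plastin gene PLS1 (ENSDARG00000039272) fell in wild type, at -1.77 (edgeR adjusted p = 0.0004), and was not called in mutants, at -0.64.

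The neutrophil gene mpx was counted few times. It had 20, 95, 24 and 68 counts in injured mutants, against 14, 0, 6 and 33 counts in sham mutants. In wild type it had 10, 113, 41 and 57 counts in injured fish, against 3, 5, 3 and 5 counts in sham fish. As levels these are 2.68, 16.0, 2.96 and 5.24 CPM in the injured mutants, against 1.94, 0, 1.17 and 3.29 CPM in sham mutants, where the count of 0 allows up to 0.487 CPM. Wild type had 1.23, 13.1, 5.08 and 5.92 CPM in injured fish, against 0.513, 0.794, 0.617 and 0.853 CPM in sham fish. Injured and sham libraries overlapped in mutants and did not in wild type, and injured libraries differed among themselves by 5.98-fold in mutants and 10.7-fold in wild type.

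In wild type mpx rose by 3.16 on the log2 scale (SE 0.84, edgeR adjusted p = 0.00992). In mutants its log2 fold change of 1.93 missed the threshold (SE 0.72, 95% interval 0.43 to 3.44, edgeR adjusted p = 0.0505). That call turned on small choices: the adjusted p was 0.0246 with DESeq2 and 0.0341 with no filter on low counts, but 0.250 without injured mutant replicate 2, where the log2 fold change was 1.102. The wild-type call held when injured wild-type replicate 2 was left out (log2 fold change 2.53, edgeR adjusted p = 0.0416). The mutant and wild-type responses of mpx were not shown to differ, with an interaction of -1.22 (95% interval -3.59 to 1.14, edgeR adjusted p = 0.832).

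For lyz there were 2, 42, 2 and 11 counts in injured mutants, against 3, 6, 25 and 16 counts in sham mutants. Wild type had 12, 53, 9 and 33 counts in injured fish, against 11, 4, 11 and 8 counts in sham fish. These are 0.246 to 7.08 CPM in injured mutants and 0.416 to 4.88 CPM in sham mutants. In wild type they are 1.12 to 6.16 CPM in injured fish and 0.635 to 2.26 CPM in sham fish. Injured and sham libraries overlapped in both genotypes. The log2 fold change was 0.05 in mutants (95% interval -1.81 to 1.92, edgeR adjusted p = 0.97) and 1.01 in wild type (95% interval -0.83 to 2.85, edgeR adjusted p = 0.44). With intervals this wide, a moderate change of lyz was not detectable.

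**Figure D2:**
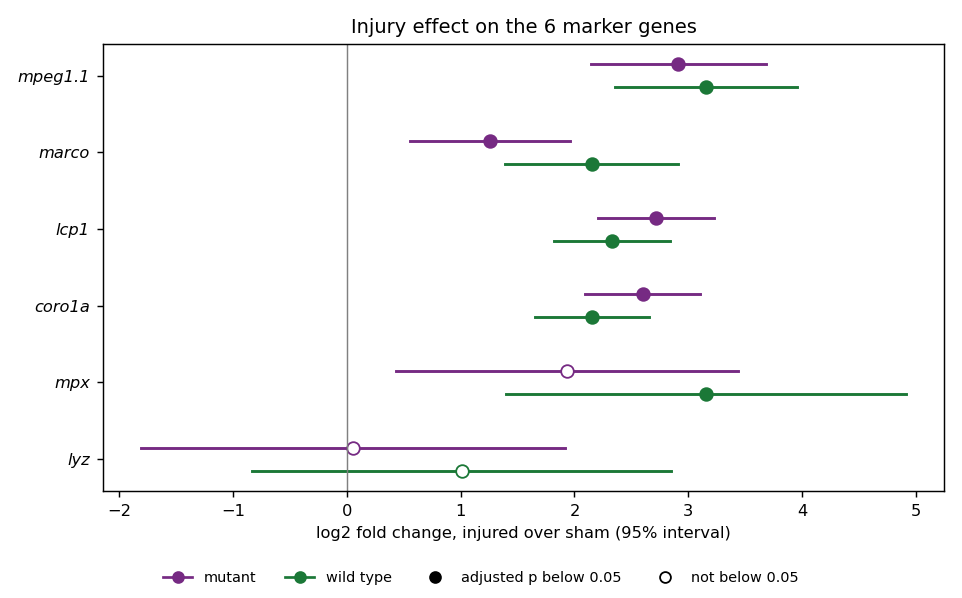
Log2 fold change of injured over sham for each marker gene, in mutants (upper of each pair) and wild type (lower), with the 95% interval of the edgeR fit; filled points had an adjusted p below 0.05. The intervals of mpeg1.1, lcp1 and coro1a are short and far from 0, while those of mpx and lyz are wide, that of lyz crossing 0 in both genotypes.

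The other genes of the same cells were described from lists that leave out the 6 members. Among macrophage genes 21 of 24 tested rose in mutants and 20 of 24 in wild type, none fell, and the median log2 fold changes were 2.07 and 2.39. Over all tested genes the medians were -0.01 and 0.01. The cathepsin gene ctss2.1 (ENSDARG00000074656), a lysosomal protease, had a mean of 65.9 ± 7.81 CPM in the injured mutants, against 7.49 ± 3.33 CPM in sham mutants, a log2 fold change of 3.15 (SD, n = 4; SE 0.31, edgeR adjusted p = 2.5e-06). In wild type it averaged 36.9 ± 14.3 CPM in injured fish and 4.62 ± 1.68 CPM in sham fish, a log2 fold change of 2.99 (SD, n = 4; SE 0.33, edgeR adjusted p = 7.39e-06). The largest wild-type rise of the list was that of an MFAP4 gene (ENSDARG00000088745), a family used to mark macrophages in zebrafish, at 3.201 (SE 0.66, edgeR adjusted p = 0.00162). In mutants this gene rose by 2.21 (SE 0.62, edgeR adjusted p = 0.0129). A further MFAP4 gene (ENSDARG00000090783) rose by 2.53 in mutants (SE 0.39, edgeR adjusted p = 0.000151) and by 2.54 in wild type (SE 0.41, edgeR adjusted p = 0.000227). At the low end were mertka (ENSDARG00000074695), a receptor for engulfing dead cells, with log2 fold changes of 0.05 in mutants and 0.31 in wild type, and SLC40A1 (ENSDARG00000000241), the iron exporter ferroportin, with -0.48 and 0.45. Neither was called in either genotype.

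Among pan-leukocyte genes 22 of 23 tested rose in mutants and 19 of 23 in wild type, with medians of 2.07 and 1.81, and none fell. PTPN6 (ENSDARG00000089043), the phosphatase SHP-1 that restrains leukocyte signalling, rose by 2.47 in mutants and 2.69 in wild type (edgeR adjusted p = 1.04e-05 and 8.52e-06). The proteoglycan gene srgn (ENSDARG00000077069) rose by 0.45 in mutants and had a log2 fold change of 0.39 in wild type that was not called (edgeR adjusted p = 0.0326 and 0.0656). Leaving out 1 library ended its mutant call in 6 of 16 fits (highest edgeR adjusted p 0.107, when sham mutant replicate 2 was left out), as did leaving out both injured libraries numbered 2 (adjusted p = 0.0965). All 6 genes of the phagocyte NADPH oxidase list, the superoxide-making complex shared by neutrophils and macrophages, rose in both genotypes, with medians of 1.97 in mutants and 2.51 in wild type. Its cytosolic subunit gene NCF1 (ENSDARG00000033735) rose by 1.79 in mutants and 3.21 in wild type (edgeR adjusted p = 0.00559 and 0.000184).

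Of the myeloid transcription factors, 8 of 10 tested rose in each genotype, with medians of 1.93 in mutants and 1.66 in wild type. SPI1 (ENSDARG00000000767) and spi1a (ENSDARG00000067797), which encode the PU.1 factors needed to form macrophages and neutrophils, rose by 2.44 and 2.42 in mutants (edgeR adjusted p = 1.47e-05 and 2.62e-05). In wild type SPI1 rose by 2.26 (edgeR adjusted p = 3.33e-05). The largest wild-type rise of this list was that of CEBPB (ENSDARG00000042725), at 2.43 (edgeR adjusted p = 2.21e-05). The 1 gene of the list that fell, in wild type, was KLF4 (ENSDARG00000079922), which is also found outside blood, at -1.13 (edgeR adjusted p = 0.0225); at a mean of 3.79 CPM it lies below the level for named genes and was named after its values were seen. Of the colony-stimulating factor genes and their receptors, 4 of 6 tested rose in each genotype. The macrophage receptor gene csf1ra (ENSDARG00000102986), also on the macrophage list, rose by 2.29 in mutants and 2.72 in wild type (edgeR adjusted p = 0.00061 and 0.000219). Its ligand gene il34 (ENSDARG00000091003) rose by 1.81 and 1.69 (edgeR adjusted p = 7e-05 and 0.000178).

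The neutrophil list gave a mixed picture. Of its 9 tested genes 5 rose in each genotype, with medians of 1.38 in mutants and 2.45 in wild type, which was 1.67 with genes at or under the floor of 3 counts per library throughout a group set to their bound. Among its genes of at least 5 CPM, MMP9 (ENSDARG00000042816), a gelatinase that other cells also secrete, rose by 2.55 in mutants and 2.45 in wild type (edgeR adjusted p = 0.000656 and 0.000694). The granulocyte receptor gene CSF3R (ENSDARG00000045959), also on the colony-stimulating factor list, rose by 1.63 in mutants and 2.64 in wild type (edgeR adjusted p = 0.0127 and 0.000525); without injured mutant replicate 4 the mutant value was 1.28 and not called (adjusted p = 0.0549). The genes nccrp1 (ENSDARG00000035326) and LECT2 (ENSDARG00000090889) were not called, with log2 fold changes of -0.19 and -0.24 in mutants and -0.02 and 0.71 in wild type. Another ID named LECT2, ENSDARG00000033227, had a mean of only 1.70 CPM and at most 3 counts in any sham wild-type library. It rose by 2.91 in wild type (edgeR adjusted p = 0.00989) and was not called in mutants, at -0.20 (edgeR adjusted p = 0.841). Summed over the 15 IDs, the list had 76.2 to 118 CPM in injured and 60.2 to 76.7 CPM in sham mutants, and 88.7 to 166 CPM in injured and 49.2 to 61.1 CPM in sham wild type. Much of these sums was nccrp1, which was not called. Its mean was 37.2 CPM in injured and 42.3 CPM in sham mutants, and 35.4 CPM in injured and 35.8 CPM in sham wild type.

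Other blood and tissue cells were listed for comparison. Over all tested genes 16.5% rose and 12.4% fell in mutants, and 13.9% rose and 11.5% fell in wild type. T and NK cell genes were at the edge of detection: 7 of 22 IDs were tested, 2 rose in each genotype (1 in wild type in 12 of 16 fits without a library), and the list summed to 16.4 to 29.2 CPM in injured and 9.42 to 13.6 CPM in sham mutants, and to 6.85 to 26.9 CPM in injured and 5.12 to 10.3 CPM in sham wild type. Of 17 B cell IDs 6 were tested, and of these 3 rose in mutants and 4 in wild type. Among them was CCR9 (ENSDARG00000055186), a chemokine receptor, by 2.39 and 3.44 (edgeR adjusted p = 0.00359 and 0.00093). At the low end, BACH2 (ENSDARG00000004074) was not called, at 0.26 in mutants and -0.03 in wild type. Of 11 thrombocyte genes tested 6 rose in mutants and 5 in wild type. Among them f13a1b (ENSDARG00000036893), a clotting factor XIII subunit gene that macrophages also express, rose by 2.19 and 2.095 (edgeR adjusted p = 2.06e-06 and 4.1e-06). The lowest named genes of this list, gata1a (ENSDARG00000013477) and FLI1 (ENSDARG00000054632), were not called. They had 0.30 and -0.02 in mutants and 0.13 and 0.05 in wild type. Of 10 erythrocyte genes tested none rose in mutants and 2 rose in wild type, and 1 fell in each. Both wild-type rises, of SLC4A1 (ENSDARG00000012881) and hbaa2 (ENSDARG00000069735), were lost without injured wild-type replicate 1 (edgeR adjusted p = 0.458 and 0.374), and over left-out libraries 10 and 4 of 16 fits lost them. Of 3 genes tested in the mast cell and eosinophil list none was called in mutants and 1 fell in wild type, a call lost in 4 of 16 fits without a library. Of 17 endothelial and endocardial genes 2 fell in mutants, and 2 rose and 2 fell in wild type, near or below the shares over all tested genes. Fibroblast genes rose in 10 of 15 in each genotype, with medians of 1.57 in mutants and 1.83 in wild type. Of 18 cardiac muscle genes 7 fell in mutants and 10 in wild type, with medians of -0.48 and -0.48. Without injured mutant replicate 1 there were 11 calls in mutants, and in wild type there were 5 without injured replicate 1, 6 without sham replicate 2 and 5 without sham replicate 3. The leukocyte rise thus stood beside a lower share of muscle RNA, whose part in it was not tested.

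**Figure D3:**
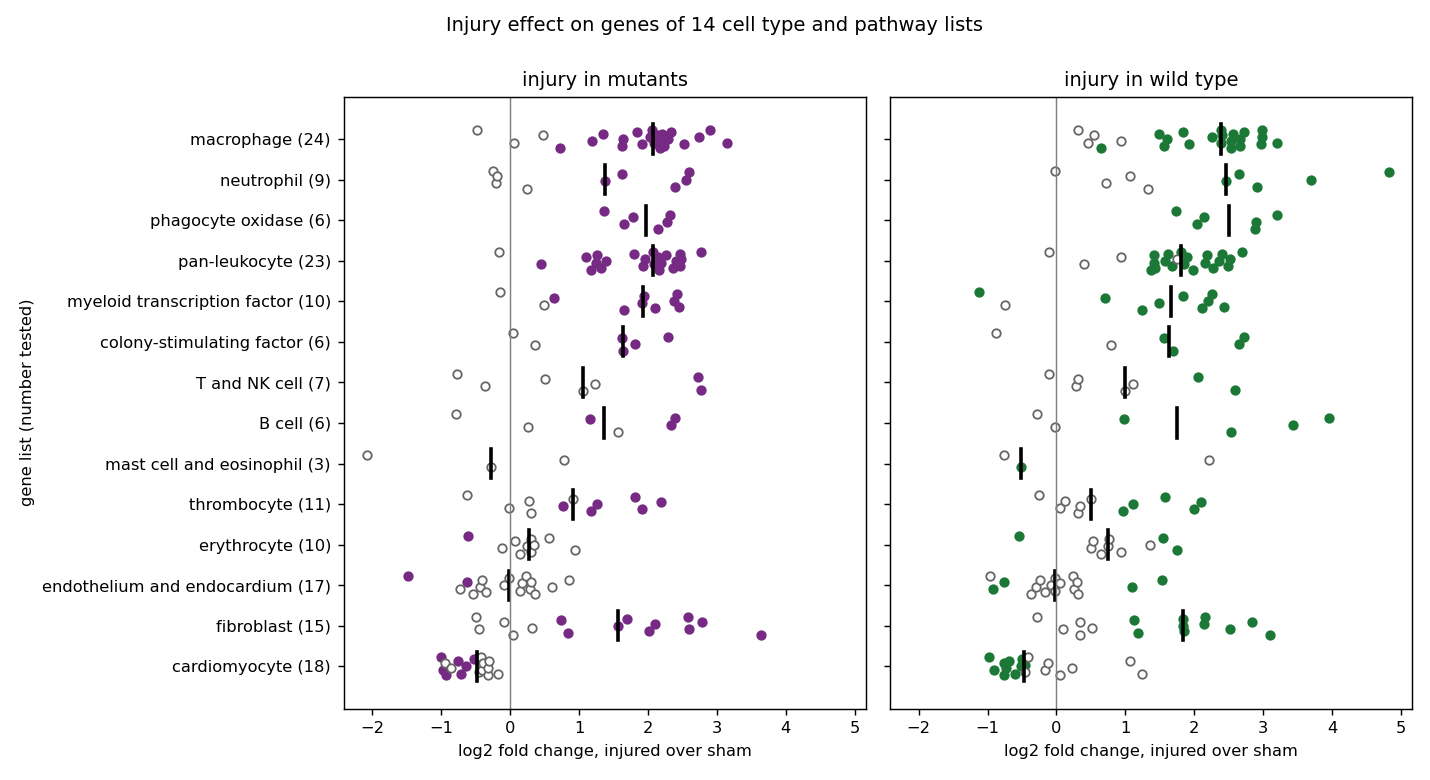
Log2 fold change of injured over sham for every tested gene of 14 lists, in mutants (left) and wild type (right); filled points had an edgeR adjusted p below 0.05 and black bars are list medians. The macrophage, phagocyte oxidase and pan-leukocyte lists lie mostly between 1 and 3 in both genotypes, and the cardiac muscle list lies mostly below 0.

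The genotypes were then compared at matched treatment. In injured fish none of the 6 members was called by edgeR, against 2.56% of all tested genes, and none by DESeq2; 1.12% of all tested genes were higher in mutants. At an unadjusted p below 0.05 there were 2 members, marco and coro1a, against 16.0% of all tested genes. The marco log2 fold change in injured mutants over injured wild type was 0.87 (95% interval 0.18 to 1.56, edgeR adjusted p = 0.185), and 0.45 without injured mutant replicate 4. For coro1a every injured mutant library, from 72.0 CPM up, was above every injured wild-type library, up to 70.1 CPM, as in 3.67% of all tested genes. Its log2 fold change was 0.51 (95% interval 0.05 to 0.97, edgeR adjusted p = 0.258). The exact two-sided permutation p of log2(CPM + 1) was 0.0286, the smallest that 4 against 4 libraries allow. Libraries without overlap always give that value, so it is not separate evidence. For mpeg1.1 and lcp1 the log2 fold changes were 0.40 (95% interval -0.29 to 1.09) and 0.42 (95% interval -0.05 to 0.89). Both intervals include 0 and reach well above it. Without injured mutant replicate 4 the values were 0.15 for mpeg1.1 and 0.20 for lcp1. The neutrophil genes had log2 fold changes of 0.05 for mpx (95% interval -1.30 to 1.40) and -0.65 for lyz (95% interval -2.40 to 1.102).

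In sham fish marco was the only member called between genotypes. Its mean was 33.8 ± 12.33 CPM in the sham mutants, against 9.87 ± 3.58 CPM in sham wild type (n = 4, SD). The lowest sham mutant library, at 16.7 CPM, was above the highest sham wild-type library, at 15.2 CPM, as in 6.66% of all tested genes. The log2 fold change was 1.77 (SE 0.36, 95% interval 1.01 to 2.53, edgeR adjusted p = 0.00699), a 3.41-fold higher level. The exact two-sided permutation p was 0.0286, the smallest possible, which libraries without overlap always give, so it adds nothing to the non-overlap. It was 1 of 6 members called, where 5.81% of all tested genes were called. The call held in each of the 16 fits that left out 1 library, with log2 fold changes of 1.62 to 2.07 and edgeR adjusted p of 0.00243 to 0.0243.

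None of the other members was called in sham fish. In sham mutants over sham wild type the log2 fold change was 0.65 for mpeg1.1 (95% interval -0.16 to 1.46, edgeR adjusted p = 0.378), 0.03 for lcp1 (95% interval -0.47 to 0.53) and 0.06 for coro1a (95% interval -0.45 to 0.58). For mpx it was 1.27 (95% interval -0.67 to 3.21) and for lyz 0.31 (95% interval -1.64 to 2.25), too wide to tell. The upper bounds for lcp1 and coro1a lie below the lower bound for marco. The interval of mpeg1.1 overlaps that of marco, so these macrophage genes were not shown to differ from each other in this comparison. The other counted MPEG1 ID, ENSDARG00000043093, had the opposite sign in sham fish, at -0.63, and was not called (edgeR adjusted p = 0.415).

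**Figure D4:**
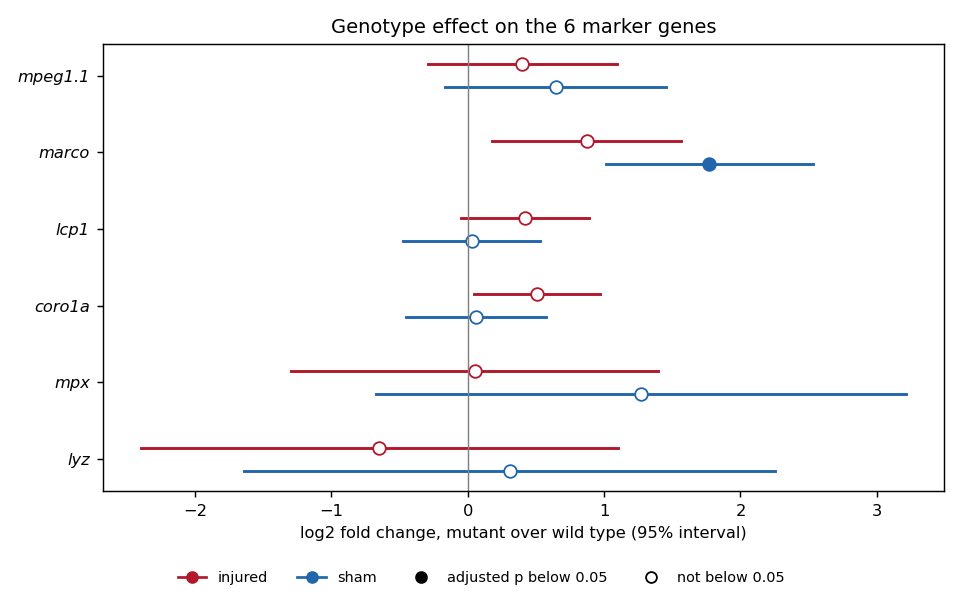
Log2 fold change of mutant over wild type for each marker gene, in injured fish (upper of each pair) and sham fish (lower), with the 95% interval of the edgeR fit; the filled point had an adjusted p below 0.05. In sham fish marco, at 1.77, is the only filled point, and in injured fish no point is filled.

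Set against the pan-leukocyte genes of the same library, the marco difference in sham fish remained. Those genes differed little between the sham groups, so the ratio is not separate evidence from the marco level. Per 100 counts of the mean of lcp1 and coro1a there were 119.8 to 229.6 marco counts in sham mutants, against 38.5 to 87.3 in sham wild type, without overlap. In injured fish there were 57.7 to 93.1 in injured mutants, against 38.4 to 68.5 in injured wild type, which overlapped. Injured mutants were thus below sham mutants without overlap in this ratio, while injured and sham wild type overlapped. For mpeg1.1 the ratio was 61.3 to 80.6 in injured mutants, against 33.7 to 84.8 in sham mutants, which overlapped. In wild type the mpeg1.1 ratio was 56.65 to 120.1 in injured fish, against 23.7 to 56.56 in sham fish, only just without overlap. The ratio of coro1a to lcp1 itself was 46.2 to 70.3 per 100 in injured mutants and 41.6 to 64.0 in injured wild type, against 49.6 to 67.4 in sham mutants and 41.0 to 82.1 in sham wild type, so the 2 pan-leukocyte genes moved together. Set against mpeg1.1 instead, marco was 230.7 to 430.8 per 100 in sham mutants and 68.1 to 278.6 in sham wild type, which overlapped. These ratios do not depend on library scaling and were not tested.

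The mpx ratio was 2.84 to 15.2 per 100 in injured mutants and 2.02 to 13.0 in injured wild type, against 0 to 18.1 in sham mutants and 2.88 to 5.08 in sham wild type. The lyz ratio was 0.237 to 6.70 in injured mutants and 1.66 to 6.10 in injured wild type, against 1.86 to 31.2 in sham mutants and 3.64 to 18.6 in sham wild type. All of these ranges overlapped. In lyz only the injured libraries numbered 2 reached the sham ranges, at 6.70 in mutants and 6.10 in wild type. The other injured libraries lay below, at 0.305, 0.237 and 0.558 in mutants and 2.43, 1.66 and 3.42 in wild type. In wild-type mpx, injured replicate 1, at 2.02, lay below the sham range. The other injured libraries, at 13.0, 7.54 and 5.91, lay above it. Relative to the pan-leukocyte genes, neither neutrophil marker was therefore separated between all injured and all sham libraries.

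**Figure D5:**
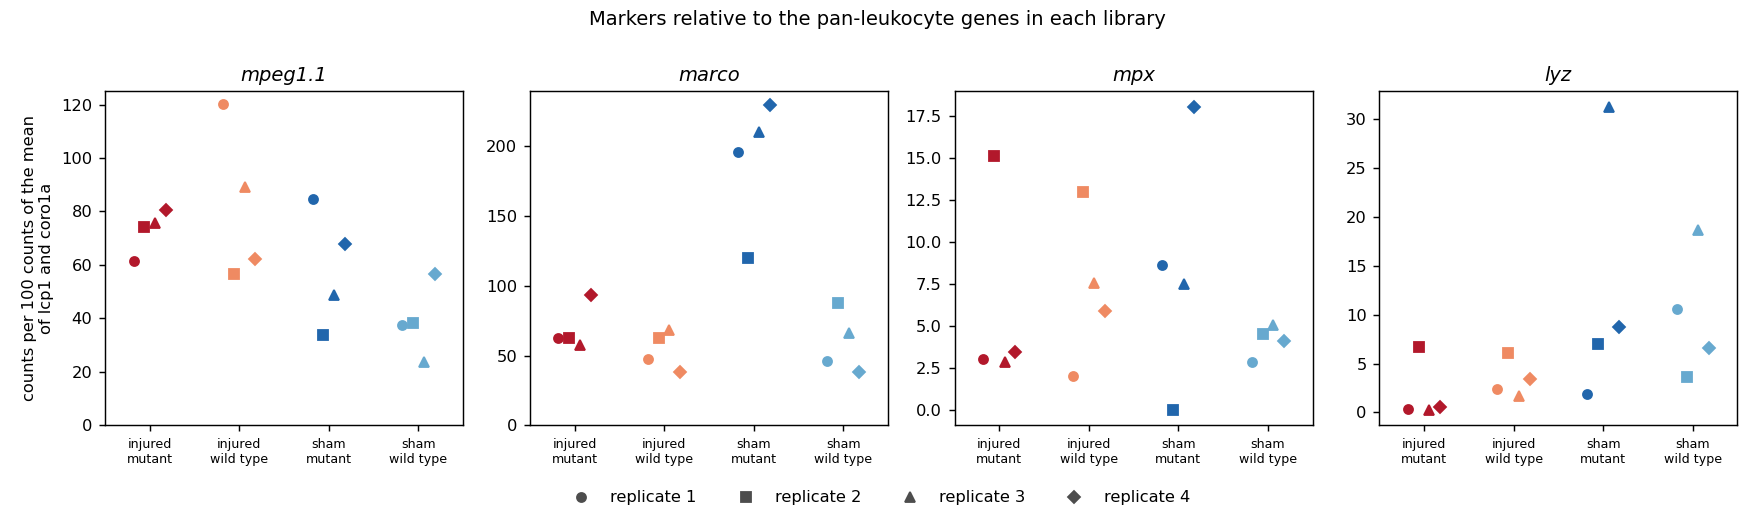
Counts of 4 marker genes per 100 counts of the mean of lcp1 and coro1a in the same library, by group; symbols are the 4 libraries of a group. For marco the sham mutant libraries, at 119.8 to 229.6, lie above all other libraries, and for mpx and lyz the groups overlap.

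Among the other macrophage genes 4 of 24 were higher in sham mutants than in sham wild type and none was lower, where 2.62% of all tested genes were higher, and the list median was 0.40. The complement gene c1qa (ENSDARG00000044613) had a mean of 11.0 ± 4.29 CPM in the sham mutants, against 4.63 ± 1.86 CPM in sham wild type (n = 4, SD), a difference of 1.24 on the log2 scale (edgeR adjusted p = 0.0209, SE 0.30). The lysosomal glycoprotein gene cd68 (ENSDARG00000055504) stood at 59.2 ± 8.93 CPM in the sham mutants, against 28.6 ± 6.62 CPM in sham wild type (n = 4, SD), a difference of 1.05 on the log2 scale (edgeR adjusted p = 0.0167, SE 0.25). The cathepsin gene ctss2.2 (ENSDARG00000013771) was higher by 1.25 (edgeR adjusted p = 0.0388) and SLC40A1 by 0.99 (edgeR adjusted p = 0.0159). These calls were less steady than that of marco: over the 16 fits without a library they were lost in 4 for c1qa, 5 for ctss2.2, 3 for SLC40A1 and 2 for cd68, with edgeR adjusted p up to 0.138 for ctss2.2 without sham mutant replicate 1. The c1qa call was also lost in the fit of the compared groups (edgeR adjusted p = 0.05885). The ctss2.2 call was lost with the replicate block (edgeR adjusted p = 0.0642). The count of 4 became 1 without sham mutant replicate 1, sham wild-type replicate 2 or sham wild-type replicate 4, 2 without sham wild-type replicate 3, and 7 with DESeq2. In injured fish cd68 alone of the 24 was called, at 0.98 (SE 0.24, edgeR adjusted p = 0.0377), and this was lost in 4 of the 16 fits, with edgeR adjusted p up to 0.117 without injured wild-type replicate 3. It was also lost in 3 of 8 other settings, with an edgeR adjusted p of 0.206 without both injured libraries numbered 2. The neutrophil, phagocyte oxidase, pan-leukocyte, myeloid transcription factor and colony-stimulating factor lists held no gene called by edgeR between genotypes in either treatment. DESeq2 called 1 pan-leukocyte gene in injured fish. In sham fish the medians of these lists, in this order, were 0.24 (0.17 with bounds for genes at the floor), 0.44, 0.33, -0.06 and 0.03. A median near that of the macrophage list was thus also seen in the phagocyte oxidase and pan-leukocyte lists.

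Lists of other cells held a few calls between genotypes. In the mast cell and eosinophil list, the peroxidase gene epx (ENSDARG00000012535), a relative of mpx, had 1, 0, 0 and 0 counts in injured mutants, against 11, 58, 43 and 0 counts in injured wild type. In sham fish it had 5, 0, 0 and 0 counts in sham mutants, against 17, 37, 41 and 32 counts in sham wild type. Mutant libraries thus held almost none of it, though injured wild-type replicate 4 also had 0 counts. Taking 3 counts per library as the floor in injured mutants, its mean was at least 8.9-fold below the observed mean of injured wild type (edgeR adjusted p = 0.0171). This bound is for the group means and not for each library. It takes the wild-type mean as measured and leaves out the wide spread of those libraries. The call was lost without both injured libraries numbered 2 (edgeR adjusted p = 0.127). In sham mutants it was lower with an edgeR adjusted p of 0.0107. The symbol table gives the name EPX to the mpx ID as well, so the pair is kept apart here by ID only. The integrin gene ITGB3 (ENSDARG00000045070) of the thrombocyte list was higher in sham mutants by 1.71 (SE 0.30, edgeR adjusted p = 0.00253), and the T cell gene cd28 (ENSDARG00000095070) by 2.90 (SE 0.74, edgeR adjusted p = 0.0264). In injured fish GP1BB (ENSDARG00000074441), a platelet receptor subunit gene, was higher in mutants by 1.92 (edgeR adjusted p = 0.0227), and the globin gene hbaa1 (ENSDARG00000097011) was lower, at -1.90 (edgeR adjusted p = 0.0249), as was hbaa2, at -2.08 (edgeR adjusted p = 0.0473). Leaving out single libraries ended the call of hbaa2 in 12 of 16 fits, of hbaa1 in 5, of cd28 in 5, of GP1BB in 4 and of epx in injured fish in 3, with edgeR adjusted p up to 0.150, 0.0808, 0.0914, 0.0784 and 0.0629, while the sham calls of epx and ITGB3 held in each.

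Whether injury changed the members differently in mutants was tested as the interaction, mutant response minus wild-type response. No member was called by edgeR, as was none of the 14986 genes tested (0%), where 1155 genes, 7.71%, had an unadjusted p below 0.05 and DESeq2 called 37. DESeq2 called no member either. The marco response was 0.90 lower in mutants on the log2 scale, at -0.90 (95% interval -1.91 to 0.12, edgeR adjusted p = 0.691). With genotype labels permuted within each treatment, the exact two-sided permutation p was 0.335. That permutation assumes no genotype difference in either treatment. Since marco differed in sham fish, it is not a test of the interaction alone. For lcp1 and coro1a the interaction was 0.39 (95% interval -0.30 to 1.08) and 0.45 (95% interval -0.25 to 1.14). For mpeg1.1 it was -0.25 (95% interval -1.31 to 0.82) and for lyz -0.95 (95% interval -3.57 to 1.66). A higher marco level in sham mutants and a smaller marco rise after injury share the sham mutant libraries and are not separate evidence.

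Libraries of 1 group also differed from each other. The standard deviation within groups of log2 CPM was 0.36 for lcp1 and 0.36 for coro1a, 0.55 for marco, 0.63 for mpeg1.1, 1.19 for mpx and 1.25 for lyz. Deviations from the group means correlated over the 16 libraries, with a Pearson r of 0.78 between mpeg1.1 and coro1a, 0.73 between marco and lcp1, 0.67 between lcp1 and coro1a and 0.51 between mpx and lyz. Pairs of 1 cell type were not always the closest: r was 0.67 between marco and mpx and 0.57 between lcp1 and mpx, against 0.52 between mpeg1.1 and marco. Between mpeg1.1 and lyz it was -0.18, the lowest of all pairs. These are descriptions over libraries that share their depth and scaling between genes. The injured libraries numbered 2 had the highest mpx and lyz of their group in both genotypes, and without both of them mpx remained called in wild type and not in mutants.

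By the same measure, the genes most like mpeg1.1 among 9500 candidates were c1qa (r = 0.90), RBM47 (ENSDARG00000061985, r = 0.87) and rac2 (ENSDARG00000038010, r = 0.86). For coro1a they were RBM47 (r = 0.90), LTA4H (ENSDARG00000006029, r = 0.85) and ccdc88b (ENSDARG00000076189, r = 0.84). For lcp1 they were RHOG (ENSDARG00000004301, r = 0.88), CSF3R (r = 0.84) and ELMO1 (ENSDARG00000098753, r = 0.84). For marco they were pfn1 (ENSDARG00000088091, r = 0.86), capn2b (ENSDARG00000055592, r = 0.84) and ADAMTS10 (ENSDARG00000075188, r = 0.84). The genes closest to mpx were tmpoa (ENSDARG00000007315), col23a1b (ENSDARG00000089078) and GAS8 (ENSDARG00000101431), at r of 0.81 to 0.79, and those closest to lyz were SETD3 (ENSDARG00000016513), nme2b.2 (ENSDARG00000099420) and GTF2B (ENSDARG00000103578), at r of 0.86 to 0.84. Each set is the top 3 of 9500 over 16 libraries.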

How the data were processed

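RNA was measured in 16 ventricle libraries, grouped by their titles; per the labels' protocols they were poly(A)-selected and strand-specific. The authors deposited estimated counts (RSEM-style expected counts) per Ensembl gene ID, not normalized, with 3.00% to 5.02% of values per library not whole. The submitters' processing notes name fastp 0.23.4, STAR 2.7.0 and 2.7.10 and RSEM 1.3.3; the genome build, annotation and use of strand are not given in the sources used here. Estimated counts split reads among paralogs, which makes near-identical genes uncertain. No column was unused.

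Counts were rounded, filtered with filterByExpr on the groups (14986 genes left), scaled by TMM and tested with edgeR 4.0.16 in R 4.3.3 by quasi-likelihood F tests in 1 fit of 4 group means, adjusted by Benjamini-Hochberg over all genes tested. Standard errors came from the F statistic and 95% intervals from the t distribution. For single genes an exact permutation test was made beside it. The procedure was run on simulated counts whose spread followed the level of each gene, with changes only in injured mutants. Spread specific to a gene was left out, so this run does not cover that of mpx and lyz. Depth was 5623721 to 12254719 counts per library; a count of 0 allows 3 counts, for counting error only.

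The 6 genes and 14 lists were chosen with earlier results of these data known. Of 238 list names 205 matched a symbol, 170 exactly and 35 after a paralog suffix was dropped. Named beside the members were, of each list, genes of at least 5 CPM with the highest and lowest 2 injury changes (not all are reported here), genes called between genotypes, paralogs, and the 3 genes most like each member in deviations of log2 CPM. Of the genes called between genotypes, those of the endothelial, fibroblast and cardiac muscle lists are not printed. KLF4 and the LECT2 gene ENSDARG00000033227 are outside this rule. PLS1, PLS3, coro1b, CORO1C and MPEG1 stand as paralogs. Alternatives were DESeq2 1.42.0, RLE and upper-quartile scaling, other filters, fits of the compared groups, a replicate block, a minimum log2 fold change of 1, other pseudocounts and leaving out each library. The labels do not pair libraries by replicate number. The correlation of deviations exceeded 0.1 in 5 of 24 same-number pairs and in 12 of 72 different-number pairs, with medians of 0.0228 and -0.00895.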

Additional observations from a re-analysis of the deposited data

Results flagged for a closer look

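In 4 of the 24 combinations of a marker gene and a group, 1 library stood apart from the others by Dixon's criterion. For normally distributed values chance gives about 1 in 20. The criterion was used on CPM and not on log2 CPM, and all 4 flagged values were high. That rate need not hold on this scale, so the share shows no excess. Injured mutant replicate 4 was high in marco, at 142 CPM with the next library at 66.1 CPM, and in coro1a, at 96.0 CPM with the next at 72.6 CPM. Injured mutant replicate 2 was high in lyz, at 7.08 CPM with the next at 0.848 CPM. Sham wild-type replicate 2 was high in marco, at 15.2 CPM with the next at 8.21 CPM; without it the marco difference between sham mutants and sham wild type was 2.07 on the log2 scale. Injured mutant replicate 4 was also the deepest injured library, at 11219932 counts, and the part of depth in its values was not tested.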

How the results depend on the processing

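Every called injury change of mpeg1.1, marco, lcp1, coro1a and mpx, and the marco difference in sham fish, kept its direction and its call under DESeq2, both other scalings, both other filters, fits of the compared groups, the replicate block and each left-out library. Requiring a log2 fold change of 1 ended the calls of marco in injured mutants (1.25, adjusted p = 0.754), of mpx in wild type (3.16, adjusted p = 0.09178) and of marco in sham fish (1.77, adjusted p = 0.333). The mpx change in mutants was called at 1.93 with no filter and at 2.03 with DESeq2; over left-out libraries it ranged from 1.102 to 2.61, called in 5 of 16 fits. Changes that were not called turned sign as follows. The lyz injury change in mutants was -0.35 with the replicate block, -1.89 to 0.91 over left-out libraries and -1.90 without both injured libraries numbered 2, an alternative chosen after seeing the data; without both, the mpx difference in injured fish was -0.14. Over left-out libraries that mpx difference ranged from -0.78 to 0.68, and the sham differences from -0.0890 to 0.115 for lcp1, -0.14 to 0.34 for coro1a and -0.55 to 0.66 for lyz. The mpeg1.1 interaction ranged from -0.61 to 0.15, the mertka injury change in mutants from -0.13 to 0.20 and that of LECT2 (ENSDARG00000090889) from -0.54 to 0.0217. For nccrp1 in wild type the range was -0.0826 to 0.0649, with 0.0283 under upper-quartile scaling and 0.004681 in the fit of the compared groups. The cause was not tested for any of these. Counts over all genes moved too: the genotype effect in injured fish called 384 genes, 198 with only the groups compared, 676 with DESeq2 and 208 to 534 over left-out libraries; in sham fish it called 870, and 559 to 952 over left-out libraries. The interaction called 10 genes with no filter, 37 with DESeq2 and 0 to 6 over left-out libraries. The neutrophil list in wild type gave 8 called genes with no filter and 9 with DESeq2, against 5. Among list counts, 1473 of 1596 recomputed values stayed within 1.5 times the reported one. The replicate numbers pair no libraries by the labels, and 4 of 16 libraries correlated best with their own number; the replicate block changed the call of no member. Low counts and wide spread between libraries limit mpx and lyz, and their parts were not told apart.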
